A study of Rattus norvegicus with 6 samples.

Results

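Of the 159452 chromatin peaks that the authors' deposited table lists as found with α1ACT alone in PC12 cells, 3060 lay in the last kilobase before a transcription start site (TSS). They made up 1.92% of the annotated peaks (exact 95% binomial interval 1.85 to 1.99) and were assigned to 2618 genes. A peak was taken when the authors' signed distance to the TSS of its assigned transcript ran from -1000 to -1 bp, so members were chosen by position alone and the signal of a peak had no part in the choice. The authors' own feature column calls 3060 of the 3060 a promoter within 1 kb. That label is also a class of distance to the TSS, so the match follows from the rule and is no separate evidence.

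PC12 is a rat pheochromocytoma line derived from the neural crest. The 6 libraries came from a PC12 line that stably expresses human α1ACT, which the labels title Q11, and from a PC12 line that stably carries the pCDNA3 vector, abbreviated EV. Each line was precipitated with the antibody labelled 1804, was precipitated with the anti-FLAG antibody M2, and gave an input library. Both lines were at passages 18 to 20 and were fixed with 1% formaldehyde for 10 min. The labels name no separate treatment, do not say what 1804 recognises, and do not say whether either line is a single clone. The series text speaks of tissue at day 3, while the labels of the 6 libraries name PC12 cells. With 1 library in each of the 6 groups, the spread between replicates is unknown for all values and p-values are left out. The 3060 peaks come from 1 library, that of the α1ACT line with 1804. Read depth is unknown, so intervals on shares and medians cover counting error only, and peaks of 1 promoter share their source.

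The stretch just before a TSS is the proximal promoter. It holds sites for sequence-specific factors, such as GC boxes bound by Sp1-family proteins and CCAAT boxes bound by NF-Y, and in mammals it is often a CpG island kept free of nucleosomes when the gene is active. Many mammalian promoters also start transcription in the opposite direction, towards a neighbouring gene or a short-lived upstream RNA. α1ACT is a transcription factor translated from within the CACNA1A mRNA, which also encodes the pore subunit of the P/Q-type calcium channel.

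To show what such promoters look like, the promoters of 4 genes are given. They are the genes with the highest-signal upstream peak within 250 bp of the TSS among those with a single RefSeq promoter entry on the same chromosome and strand. Each run covers 250 bases before to 50 after the RefSeq start on build GRCr8, read 5′ to 3′ on the gene's strand, with capitals marking GC boxes (GGGCGG or its complement CCGCCC). The peaks themselves were placed on build rn5, so the position of a peak inside these letters is known only as its distance from the rn5 start. App encodes the amyloid precursor protein (minus strand, chr11:37722789-37723088), Itm2b a membrane protein that interacts with it (minus strand, chr15:54978406-54978705), Limk2 a kinase that controls actin filaments through cofilin (minus strand, chr14:82509595-82509894) and Gtdc1 a protein with a glycosyltransferase domain (minus strand, chr3:49571066-49571365).

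App: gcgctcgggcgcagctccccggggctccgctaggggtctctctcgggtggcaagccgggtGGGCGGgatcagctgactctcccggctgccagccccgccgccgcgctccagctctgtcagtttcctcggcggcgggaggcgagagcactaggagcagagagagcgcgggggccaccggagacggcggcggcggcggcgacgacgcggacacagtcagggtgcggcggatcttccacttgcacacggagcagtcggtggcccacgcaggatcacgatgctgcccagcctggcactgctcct

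Itm2b: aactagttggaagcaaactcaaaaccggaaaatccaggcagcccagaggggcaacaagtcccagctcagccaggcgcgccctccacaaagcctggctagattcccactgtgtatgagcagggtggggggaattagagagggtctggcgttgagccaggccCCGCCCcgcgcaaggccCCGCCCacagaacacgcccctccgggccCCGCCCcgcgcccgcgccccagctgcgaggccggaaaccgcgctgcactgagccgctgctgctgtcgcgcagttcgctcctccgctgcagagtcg

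Limk2: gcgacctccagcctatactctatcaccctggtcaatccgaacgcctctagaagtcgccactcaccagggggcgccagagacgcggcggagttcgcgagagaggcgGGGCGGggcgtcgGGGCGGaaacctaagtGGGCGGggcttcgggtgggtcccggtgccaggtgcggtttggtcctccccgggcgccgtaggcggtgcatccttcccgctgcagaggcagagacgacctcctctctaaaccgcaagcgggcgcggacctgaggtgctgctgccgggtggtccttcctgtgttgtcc

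Gtdc1: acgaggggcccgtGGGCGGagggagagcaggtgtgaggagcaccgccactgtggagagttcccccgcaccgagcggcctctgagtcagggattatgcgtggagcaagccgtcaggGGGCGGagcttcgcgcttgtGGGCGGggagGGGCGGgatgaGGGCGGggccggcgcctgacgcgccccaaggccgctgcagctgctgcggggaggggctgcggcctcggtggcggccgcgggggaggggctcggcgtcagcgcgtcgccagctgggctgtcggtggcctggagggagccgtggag

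The higher of the 2 upstream peaks of App lay 44 bp before the TSS and had a signal of 17.9, on the authors' own scale for peaks of this library. That of Itm2b lay 70 bp before it with 16.5, that of Limk2 133 bp before it with 16.5, and that of Gtdc1 218 bp before it with 16.5. The 4 printed promoters hold 1 GC box in App, 3 in Itm2b, 3 in Limk2 and 5 in Gtdc1, and their GC content was 72.7%, 67.3%, 68.0% and 75.3%.

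The peaks crowded towards the start. Of the 3060, 680 (22.2%, 20.8 to 23.7) lay within 100 bp of the TSS and 644 (21.0%) beyond that up to 200 bp. Within 250 bp lay 1576 (51.5%, 49.7 to 53.3) and within 500 bp 2349 (76.8%, 75.2 to 78.3). The outermost 100 bp of the window held 125 (4.08%). Counted by peak centres and on the same footing for both strands, the kilobase before the TSS held 338 peaks per 100 bp of distance, against 577 in the kilobase after it and 74.2 from 1000 to 3000 bp upstream. In each of the 10 bins the side after the TSS held more peaks: the bin from 100 to 200 bp held 623 peaks before the TSS and 1159 after it, and the bin from 900 to 1000 bp held 116 before it and 145 after it.

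**Figure D1:**
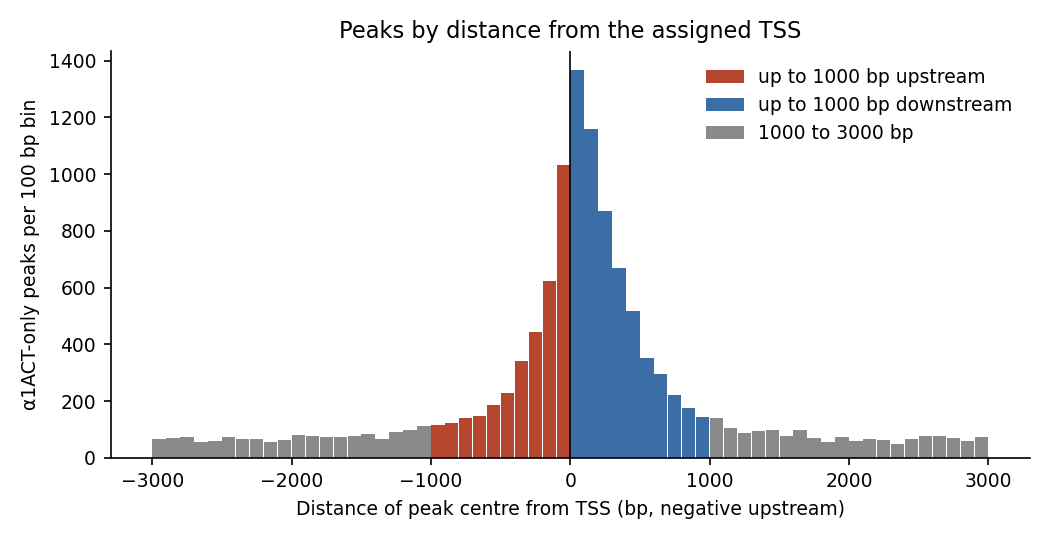
The number of α1ACT-only peaks in each 100 bp bin (vertical axis) by the distance of the peak centre from the assigned TSS in bp (horizontal axis, negative upstream). Bars upstream of the TSS climb from 116 peaks in the outermost bin of the kilobase to 1034 in the bin next to the TSS, where the first bin downstream holds 1367.

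The authors' distance is taken from different edges of a peak on the 2 strands. For genes on the plus strand, 1494 members were measured from the edge farther from the TSS, and for genes on the minus strand, 1566 from the nearer edge, a shift of 55 bp for peaks of 56 bp. Accordingly, 287 members were listed at 1 to 55 bp, 287 of them on minus-strand genes and 0 on plus-strand genes. The shares of the 3060 by distance, and the distances given for single genes, keep this mixed measure. Of the 680 members within 100 bp, 217 were on plus-strand and 463 on minus-strand genes. Measured from the nearer edge on both strands, all 3060 stayed within 1 to 1000 bp and 19 further peaks joined them. The median signal was 4.23 on plus-strand and 4.22 on minus-strand genes.

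At the window's inner end, members 1 bp from the TSS included those of Pdcd2l with a signal of 7.88, the lipid phosphatase gene Inppl1 with 2.24 and Slc3a2, the heavy chain of an amino acid transporter, with 9.68. Another 719 peaks lay over a TSS and were not members. At the outer end, the members of Cd209e and Ly6al lay at 1000 bp with signals of 2.11 and 4.96, and the peak of Lhb, at 1002 bp with 2.43, fell outside.

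Peaks in this kilobase were of higher signal than peaks over 3000 bp from a TSS and close to those on the other side of the TSS. Their median signal was 4.23 (4.09 to 4.35), with quartiles of 2.99 and 6.10 and a range of 2.00 to 27.3. The median was 4.41 (4.32 to 4.49) for the 5396 peaks 1 to 1000 bp downstream and 4.56 (4.34 to 4.83) for the 719 over a TSS. It was 3.21 (3.18 to 3.38) for the 1472 peaks over 1000 and up to 3000 bp upstream and 2.99 for the 147246 beyond 3000 bp on either side. Of the upstream peaks 1076 (35.2%, 33.5 to 36.9) belonged to the upper 10% of annotated peaks by signal, against 2037 (37.8%, 36.4 to 39.1) of the downstream peaks, 271 (18.4%, 16.5 to 20.5) of those over 1000 and up to 3000 bp upstream and 8.14% of those beyond 3000 bp. The highest −log10 q-value that the authors deposited for this library, 3.89, was reached by 868 members (28.4%) and by 7.08% of all annotated peaks. Of the members 2265 (74.0%) lay in the upper 50% of annotated peaks by signal, so the rest were below the median of the whole list.

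Within the kilobase the median signal was lowest in the outer bins. By peak centres the median was 4.51 (4.31 to 4.73) in the 100 bp next to the TSS, 4.49 (4.07 to 4.97) from 400 to 500 bp, 3.75 (3.42 to 4.23) from 700 to 800 bp and 3.33 (3.11 to 3.88) from 900 to 1000 bp. The first 100 bp after the TSS had 4.88 (4.73 to 5.07). From 400 to 500 bp after it the median was 4.11 (3.86 to 4.29). The intervals of the bins before and after the TSS overlap at 400 to 500 bp and barely meet at 100 bp.

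**Figure D2:**
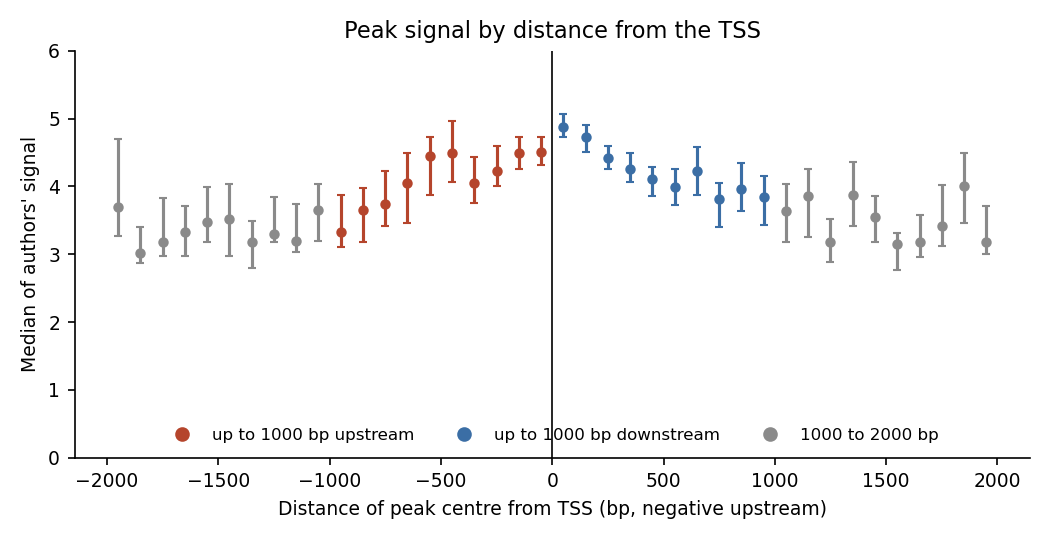
Median of the authors' signal (vertical axis) in 100 bp bins of peak-centre distance from the TSS (horizontal axis, bp, negative upstream), with exact 95% intervals of the median as bars. Upstream medians run from 3.33 in the outermost bin of the kilobase to 4.51 next to the TSS, and the bin just downstream reaches 4.88.

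The highest-signal upstream peaks belonged to genes of several functions. The highest, 599 bp before Cep95, the gene of a centrosomal protein, had a signal of 27.3 at chr10:94733463-94733518 of rn5, and its centre was also inside a listed gene on the opposite strand. Cep95 had a second upstream peak at 398 bp with 8.36, and 0 assigned peaks over or within 1000 bp after the TSS. A peak assigned to Ddx5, a gene on the opposite strand, did lie after the Cep95 TSS, at chr10:94734480-94734535 with 2.79. The next, at Socs2, which encodes an inhibitor of cytokine receptor signalling, had 24.0 at chr7:36561292-36561347, 669 bp before the TSS. Socs2 also had an upstream peak of 2.80 at 145 bp, and the highest of its 2 peaks over or after the TSS had 7.50. In both genes the peak farther from the TSS was the higher one.

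Lrrc16b, the gene of a regulator of actin capping protein, had 21.2 at 127 bp and 4.26 at 662 bp. Tsc22d2 had 21.1 at 874 bp and 3.85 at 382 bp. Trpc1, a cation channel of the plasma membrane, had 20.3 at 296 bp and 3.25 at 569 bp. Lnpep, the aminopeptidase that travels with the glucose transporter of insulin-responsive vesicles, had 19.8 at 493 bp and 4.01 at 931 bp. In each of these 4 genes 1 of the 2 upstream peaks was far above the other.

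Adprh, which removes ADP-ribose from arginine, had 17.8 at 169 bp. Gtf2a1, a subunit of the general transcription factor TFIIA, had 17.5 at 259 bp, with 2 further upstream peaks of 5.70 and 2.62. Cdc42ep3, an effector of the small GTPase Cdc42, had 17.3 at 439 bp. Ybx2, a Y-box protein of germ cells, had 16.8 at 455 bp, and Xrcc4, a factor of non-homologous end joining, had 16.2 at 286 bp. RGD1306001, a placeholder symbol of no stated function, had 20.1 at 377 bp and was not counted among the named genes. Of the 15 named genes with the highest upstream peak, 9 had 0 assigned peaks over or within 1000 bp after the TSS, among them Trpc1, Adprh, Ybx2 and Xrcc4. The same was true of 54.9% of all TSSs with a member, so the 9 of 15 are near the general share.

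A second upstream peak was uncommon. The 3060 members fell on 2651 of the 14852 listed TSSs (17.8%, 17.2 to 18.5), where a gene mapped at several places counts once for each. Of these TSSs 2296 (86.6%) carried 1 member, 304 carried 2, 48 carried 3 and 3 carried 4. Those with 4 were Map4k4, a kinase of stress signalling, Epas1, which encodes the hypoxia-inducible factor HIF-2α, and Cygb, which encodes cytoglobin. At Map4k4 the signals were 7.13 at 925 bp, 2.12 at 552 bp, 3.36 at 341 bp and 2.24 at 129 bp. At Epas1 they were 4.13 at 923 bp, 6.32 at 690 bp, 2.39 at 489 bp and 6.57 at 75 bp. At Cygb they ran from 2.10 to 5.18. The starts of neighbouring members of 1 TSS were at least 199 bp apart, with a median of 323 bp over 409 pairs.

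An assigned peak on the other side of the TSS was absent at most of these promoters, but it was more common there than at all listed TSSs. Peaks assigned to another TSS were not counted. Of the 2651 TSSs with a member, 1456 (54.9%, 53.0 to 56.8) had 0 assigned peaks over or up to 1000 bp after the TSS, and 1195 (45.1%, 43.2 to 47.0) had at least 1. Of the 14852 listed TSSs, 4872 had a peak over or after the TSS. The same 1195 are 24.5% (23.3 to 25.8) of these 4872, where 17.8% (17.2 to 18.5) of all listed TSSs had a member. Where both sides had a peak, the highest upstream peak exceeded the highest one over or after the TSS at 565 of 1195 (47.3%, 44.4 to 50.2) and was below it at 629 (52.6%). The highest upstream peak had a median signal of 4.74 (4.60 to 4.97) at TSSs with peaks on both sides and 4.05 (3.96 to 4.23) at TSSs with upstream peaks alone.

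A small share of the members lay between a pair of genes that are transcribed away from each other. Of the 3060, 93 (3.04%, 2.46 to 3.71) were also within 1000 bp upstream of a listed TSS on the opposite strand. Their median signal was 4.26 (3.83 to 5.11), against 4.23 (4.08 to 4.35) for the other 2967. The highest of the 93 lay between Lrsam1, a ubiquitin ligase gene, and Rpl12, a gene of the large ribosomal subunit, whose starts are 115 bp apart, and had 15.0 at chr3:17346135-17346190. The peak between Aida and Brox, with starts 412 bp apart, had 12.7, and the one between Bivm and Kdelc1, with starts 1217 bp apart, had 12.1. A peak between Cep57l1 and the stress-response gene Sesn1 had 9.86, and a peak between Parg, which degrades poly(ADP-ribose), and Timm23, a subunit of the mitochondrial import pore, had 9.78.

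An opposite TSS within 1000 bp was less common at TSSs with a member than at those with a peak over or after the TSS alone. It was listed for 79 of 2651 (2.98%, 2.37 to 3.70) TSSs with a member, for 282 of 3677 (7.67%, 6.83 to 8.58) with a peak over or after the TSS alone, and for 207 of 8524 (2.43%, 2.11 to 2.78) with no peak within 1000 bp. A peak is assigned to its nearer TSS, so the upstream stretch that can count for a gene ends halfway to its neighbour, and listed TSSs are those with an assigned peak. The part of these rules in the difference was not tested. Another 119 members had their centre inside a different listed gene, 59 inside a gene of the opposite strand and 60 inside a gene of the same strand.

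The share of TSSs with an upstream peak differed between chromosomes. It was highest on chromosome 10, with 300 of 1235 listed TSSs (24.3%, 21.9 to 26.8), followed by 23.6% on chromosome 20, 23.4% on chromosome 7 and 23.2% on chromosome 6. It was lowest on X, with 34 of 459 (7.41%, 5.18 to 10.2), on chromosome 5, with 60 of 715 (8.39%, 6.46 to 10.7), and on chromosome 4, with 81 of 843 (9.61%, 7.70 to 11.8). The other 14 chromosomes lay between 14.8% and 21.2%. The median signal of the members was 3.47 on chromosome 5 and 4.75 on chromosome 8, the extremes of all 21.

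**Figure D3:**
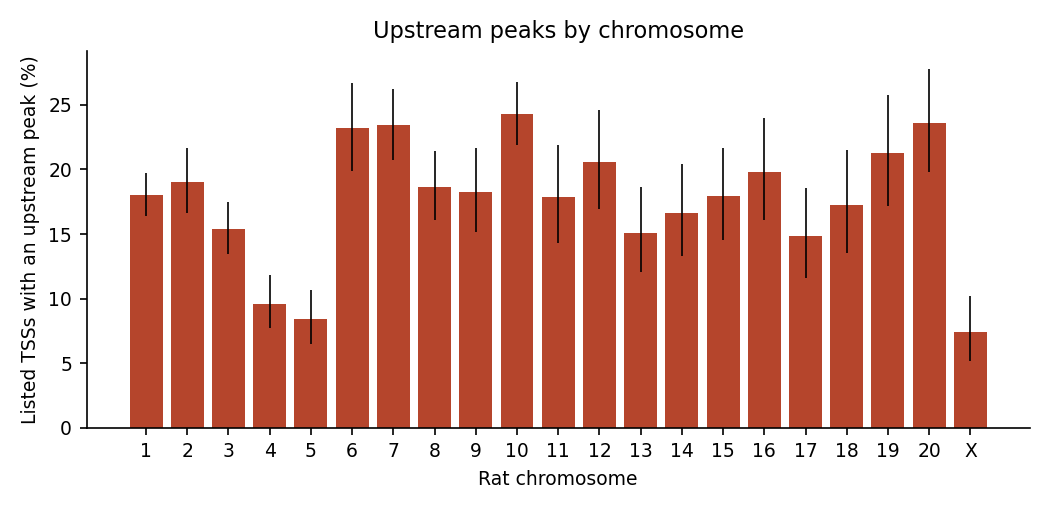
Share of listed TSSs with at least 1 peak 1 to 1000 bp upstream (vertical axis, percent, exact 95% intervals as lines) for each rat chromosome (horizontal axis). Chromosomes 4, 5 and X stand at 9.61%, 8.39% and 7.41%, below each of the others, and chromosome 10 at 24.3%.

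Promoter sequence differed between genes with and without an upstream peak. RefSeq promoter sequences (build GRCr8, 250 bases before to 50 after the start) were at hand for 2097 of the 2542 protein-coding genes with a member (82.5%). Their median GC content was 66.0% (65.3 to 66.3), against 61.3% (61.0 to 61.7) for genes with a peak over or after the TSS alone and 54.7% for genes with no peak within 1000 bp. The ratio of observed to expected CpG dinucleotides had a median of 0.828, 0.796 and 0.487 in the same order. Among genes with a member, the median of the highest upstream signal was 3.87 (3.72 to 4.09) in the 525 genes with the lowest CpG ratio (up to 0.673) and 4.93 (4.64 to 5.20) in the 524 with the highest (from 0.948). No input peak list was analysed here, so whether input chromatin of these cells follows the same composition was not tested.

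A GC box stood in 73.6% (71.7 to 75.5) of promoters of genes with a member, 67.2% of those with a peak over or after the TSS alone, 40.0% of those with none within 1000 bp and 49.9% of all 15738 promoters of protein-coding genes. A TATA box (TATAAA) stood in 5.17% (4.29 to 6.18) of promoters of genes with a member, against 6.90% with a peak over or after the TSS alone, 14.4% with none and 11.7% of all. The AP-1 motif TGANTCA gave 3.72%, 4.62% and 7.34% in the same order, with 6.31% of all, and the hexamer TTATAA gave 2.59%, 2.28% and 5.98%, with 4.79% of all. These 3 motifs were rarer, and the GC box more frequent, with a member than with no peak within 1000 bp.

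The ETS motif CCGGAAG stood in 15.9% (14.4 to 17.5) of promoters of genes with a member and in 20.0% (18.6 to 21.5) of those with a peak over or after the TSS alone. It was found in 10.3% of those with no peak within 1000 bp and in 12.9% of all. The CCAAT box gave 34.5% (32.5 to 36.5) with a member and 38.9% (37.1 to 40.6) with a peak over or after the TSS alone, where all promoters had 38.0%. So the GC box was more frequent, and the ETS motif and CCAAT box less frequent, in promoters of genes with a member than in those of genes with a peak over or after the TSS alone, with intervals that do not overlap for these 3. The E-box CACGTG gave 10.4% with a member and 10.2% with a peak over or after the TSS alone (7.90% of all). The cAMP response element TGACGTCA gave 3.04% and 3.93% (2.55% of all), the NRF1 core GCATGCGC 5.45% and 5.98% (3.79% of all), the YY1 motif AAGATGGCG 3.36% and 4.13% (2.59% of all) and the ZNF143 core ACTACAAT 0.817% and 1.16% (0.902% of all). Both strands were searched, and matches may overlap one another. A match is a description and not a site.

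**Figure D4:**
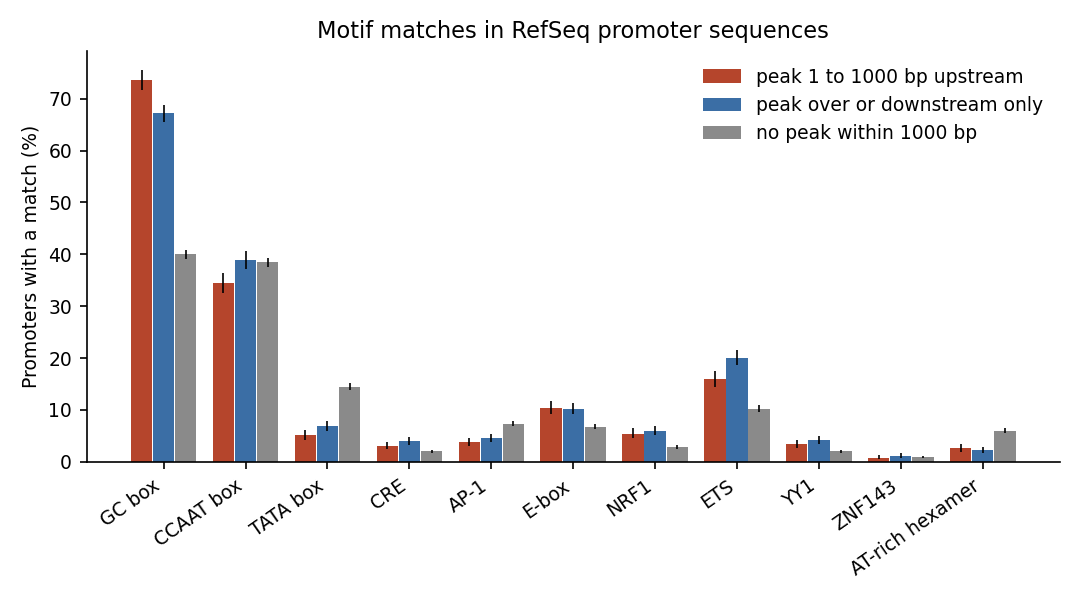
Share of RefSeq promoter sequences with at least 1 match to each motif (vertical axis, percent, exact 95% intervals as lines) for genes with an upstream peak, genes with a peak over or up to 1000 bp after the TSS alone, and genes with no peak within 1000 bp. GC boxes stand at 73.6%, 67.2% and 40.0% in these groups, and TATA boxes at 5.17%, 6.90% and 14.4%.

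Of 18539 protein-coding RefSeq genes that have a curated transcript, 2542 (13.7%) had a peak 1 to 1000 bp upstream, and of the 13854 with any assigned peak the same 2542 are 18.3%. A peak over or up to 1000 bp after the TSS was listed for 4748 (25.6%). Each of 26 gene lists was read against these shares, as a description with no set test. For 4 lists the exact interval of the share with an upstream peak lay above 13.7%, and for the other 22 it held that value. Among genes with an assigned peak the interval of 3 of the 4, those other than the cytosolic ribosomal proteins, lay above 18.3%.

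Cholesterol synthesis genes and their regulators had an upstream peak in 10 of 24 (41.7%, 22.1 to 63.4). They included the regulators Insig1, which holds the SREBP escort protein in the endoplasmic reticulum, with a signal of 8.37 at 69 bp, and Srebf1, which encodes SREBP-1, with 5.21 at 137 bp. Of the enzymes, Hmgcs1 had 7.46 at 183 bp. Cyp51 had 6.17 at 232 bp, Acat2 5.68 at 44 bp and Mvd 5.54 at 219 bp. Hsd17b7, Mvk and Tm7sf2 had 4.02, 3.12 and 2.39. A peak over or after the TSS was listed for 14 of the 24 (58.3%, 36.6 to 77.9), a share that is also above the 25.6% of all genes.

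Promoters of this pathway are known for CCAAT and GC boxes beside the sterol regulatory element. As examples they are printed for Hmgcs1 (plus strand, chr2:53382054-53382353), Cyp51 (plus strand, chr4:30991443-30991742) and Mvd (minus strand, chr19:67414925-67415224), all on GRCr8. Capitals mark the CCAAT box or its complement ATTGG. Each has an upstream peak within 250 bp of the rn5 start, as do Insig1, Acat2, Srebf1 and Tm7sf2, which are not printed. Hmgcs1 and Mvd hold 2 CCAAT boxes each and Cyp51 holds 0.

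Hmgcs1: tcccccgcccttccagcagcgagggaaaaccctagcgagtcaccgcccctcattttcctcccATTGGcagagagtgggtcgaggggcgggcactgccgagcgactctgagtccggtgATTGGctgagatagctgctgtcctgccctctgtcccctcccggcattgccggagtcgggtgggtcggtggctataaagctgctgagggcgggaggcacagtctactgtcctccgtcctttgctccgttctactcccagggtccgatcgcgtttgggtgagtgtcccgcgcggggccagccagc

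Cyp51: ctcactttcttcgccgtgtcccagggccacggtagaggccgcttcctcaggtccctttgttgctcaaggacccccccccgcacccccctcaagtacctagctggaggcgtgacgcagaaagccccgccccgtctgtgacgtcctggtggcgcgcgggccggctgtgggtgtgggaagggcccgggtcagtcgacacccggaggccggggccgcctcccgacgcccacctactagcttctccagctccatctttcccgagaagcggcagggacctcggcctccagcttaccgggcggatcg

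Mvd: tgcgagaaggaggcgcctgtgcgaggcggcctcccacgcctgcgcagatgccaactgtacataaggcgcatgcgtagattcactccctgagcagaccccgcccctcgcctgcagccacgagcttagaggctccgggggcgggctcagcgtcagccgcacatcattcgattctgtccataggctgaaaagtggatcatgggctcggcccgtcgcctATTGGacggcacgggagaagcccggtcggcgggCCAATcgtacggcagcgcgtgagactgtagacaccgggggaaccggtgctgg

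A CCAAT box stood in 8 of 10 promoters (9 genes) of the list with an upstream peak (80.0%, 44.4 to 97.5) and in 7 of 9 promoters without one, so it did not tell them apart. A form of the sterol element, TCACNCCAC, searched on both strands after these genes were seen, was found in 0 of the 19 promoters of the list and in 1.07% of all promoters, which says only that these letters are not in the 300 bases searched.

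Immediate early genes, which respond to growth factors and depolarisation without new protein synthesis, had an upstream peak in 11 of 35 (31.4%, 16.9 to 49.3). Fosl2, a partner of Jun proteins in AP-1, had 11.7 at 725 bp, and Klf10, a zinc finger factor induced by TGF-β, 10.1 at 762 bp. Egr2 had 8.49 at 257 bp, Egr4 5.95 at 15 bp and Egr3 3.31 at 456 bp. The orphan nuclear receptor gene Nr4a1 had 7.57 at 458 bp, and Jund 7.51, Fos 4.22 and Jun 2.63 lay at 504, 369 and 448 bp. A peak over or after the TSS was listed for 23 of the 35 (65.7%, 47.8 to 80.9).

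Chromatin regulators had an upstream peak in 14 of 48 (29.2%, 17.0 to 44.1) and a peak over or after the TSS in 17 (35.4%, 22.2 to 50.5). Within the list histone lysine demethylase genes came first: Kdm1a with 9.92 at 43 bp, Kdm2a with 9.66 at 833 bp and Kdm2b with 9.47 at 550 bp. Of the SWI/SNF remodelling complex, Smarcc1 had 9.17, Smarcd1 7.27, the ATPase genes Smarca2 and Smarca4 4.36 and 2.17, and Smarcb1 2.33. The histone methyltransferase gene Ehmt2 had 3 upstream peaks, the highest of 8.28, and Ctcf, which encodes the insulator protein, 2, the highest of 6.99. Higher upstream peaks lay before chromatin genes that the list does not hold, among them the SWI/SNF subunit gene Smarce1 with 15.1 at 11 bp, the methyltransferase gene Nsd1 with 13.4 and the bromodomain gene Baz1b with 11.4.

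Cytosolic ribosomal protein genes had an upstream peak in 14 of 55 (25.5%, 14.7 to 39.0), led by Rpl18 with 9.34 at 129 bp and Rps19 with 7.98 at 63 bp. A peak over or after the TSS was listed for 23 of the 55 (41.8%, 28.65 to 55.9), also above the 25.6% of all genes. The list does not hold every such gene: Rps10 had 8.01 at 56 bp, and the gene that the annotation calls Rpl37, which the RefSeq table names Rpl37l1, had 9.62 at 355 bp. Of the other translation and mitochondrial lists, aminoacyl-tRNA synthetases had 6 of 36 (16.7%), led by Eprs with 7.97 and Vars2 with 5.64. Oxidative phosphorylation genes had 9 of 53 (17.0%), led by Ndufa6 with 8.995 and Uqcrc2 with 7.202. Mitochondrial ribosomal protein genes had 4 of 47 (8.51%, 2.37 to 20.4), led by Mrps7 with 8.02.

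Several lists had an interval of the share over or after the TSS above that of all genes, and an upstream interval that held it. Among them were oxidative phosphorylation (43.4%, 29.8 to 57.7 over or after the TSS), aminoacyl-tRNA synthetases (44.4%, 27.9 to 61.9) and general transcription (48.0%, 33.7 to 62.6). The same held for autophagy and lysosome (51.3%, 34.8 to 67.6), apoptosis and survival (47.1%, 29.8 to 64.9) and presynaptic release (56.1%, 39.8 to 71.5). It held for 3 further lists too. Proteasome genes had an upstream peak in 2 of 32 (6.25%, 0.766 to 20.8), Psmd6 with 6.08 and Psma5 with 5.36, and a peak over or after the TSS in 16 (50.0%, 31.9 to 68.1). Spliceosome and RNA-binding genes had 6 of 48 (12.5%, 4.73 to 25.2) upstream, led by Srsf2 with 8.84 and Srsf3 with 4.87, and 29 (60.4%, 45.3 to 74.2) over or after the TSS. Chaperones had 8 of 35 (22.9%, 10.4 to 40.1) upstream, led by Hsp90aa1 with 7.60 and Dnajb4 with 6.78, and 24 (68.6%, 50.7 to 83.1) over or after it.

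General transcription genes had an upstream peak in 10 of 50 (20.0%, 10.0 to 33.7), with Gtf2a1 first and then Ccnt1, the cyclin of the elongation factor P-TEFb, with 11.9. DNA repair and replication genes had 8 of 52 (15.4%), with Xrcc4 first and then Fancl with 7.68. Cell cycle genes had 7 of 35 (20.0%), led by Birc5 with 7.30 and Cdk2 with 5.14. Apoptosis and survival genes had 8 of 34 (23.5%, 10.7 to 41.2), led by the BH3-only gene Bnip3 with 11.3 and the p53 antagonist Mdm2 with 11.3. Autophagy and lysosome genes had 6 of 39 (15.4%), led by the initiating kinase Ulk1 with 4.94 and Sqstm1 with 4.38. The ATF and CREB family had 3 of 18 (16.7%): Creb3 with 9.80, Crtc1 with 4.93 and Creb1 with 3.15.

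**Figure D5:**
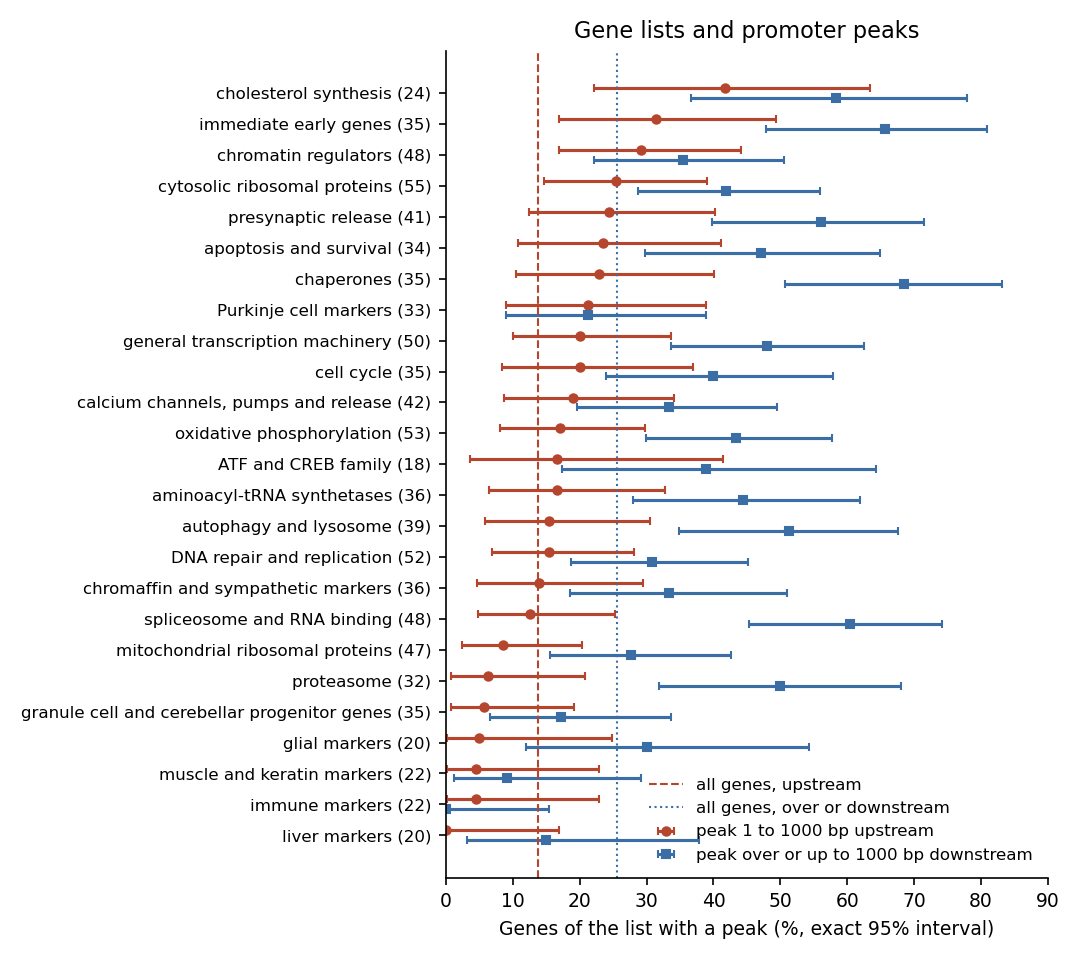
Share of genes (horizontal axis, percent, exact 95% intervals as lines) with a peak 1 to 1000 bp upstream (circles) and with a peak over or up to 1000 bp after the TSS (squares), for 25 lists with their gene numbers (vertical axis). Vertical lines give the shares of all protein-coding genes, 13.7% and 25.6%, and the circles run from 0% for liver markers to 41.7% for cholesterol synthesis genes.

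Among genes of excitable cells, presynaptic release genes had an upstream peak in 10 of 41 (24.4%, 12.4 to 40.3). The active zone genes Rims2 and Rimbp2 led with 12.2 at 827 bp and 6.29 at 241 bp. Calcium channel, pump and release genes had 8 of 42 (19.0%, 8.60 to 34.1), led by Camk2d, a calcium/calmodulin-dependent kinase gene with 3 upstream peaks of up to 11.6. Of markers of chromaffin and sympathetic cells, from whose lineage PC12 derives, 5 of 36 had one (13.9%, 4.67 to 29.5), a share close to that of all genes. They were the transcription factor genes Isl1 with 7.54, Hand2 with 4.58 and Gata2 with 2.80, the nicotinic receptor subunit gene Chrnb4 with 5.03 and the prohormone convertase gene Pcsk2 with 4.23. A peak is not a measure of expression, so these lists do not test the identity of the cells.

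Purkinje cell markers had an upstream peak in 7 of 33 (21.2%, 8.98 to 38.9) and a peak over or after the TSS in 7 (21.2%), where all genes had 13.7% and 25.6%. The highest were Plcb4, a phospholipase C gene, with 9.62 at 476 bp and Id2 with 8.32 at 488 bp. Genes of granule cells and cerebellar progenitors had it in 2 of 35 (5.71%, 0.6997 to 19.2), the hedgehog effector Gli1 with 7.49 at 940 bp and Zic1 with 5.28 at 288 bp. Of the lists of other cell types, glial markers had 1 of 20, Cnp with 4.49. Immune markers had 1 of 22, Tyrobp with 2.11, and muscle and keratin markers 1 of 22, Actn2 with 4.86. Liver markers had 0 of 20, which allows a share of up to 15.0%. The intervals of these 6 lists all held 13.7%.

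Of the 4 genes reported as α1ACT targets or as its host gene, 1 had an upstream peak (25%, 0.631 to 80.6), where all genes had 13.7%. Btg1, an antiproliferative gene, had a peak of 2.69 at chr7:37858043-37858098, 278 bp before the TSS, above 32.2% of the annotated peaks. Its other 3 peaks within 1000 bp lay over or after the TSS, and the highest of them had 10.1. The nearest upstream peak of Grn, the progranulin gene, lay 10367 bp before the TSS with a signal of 3.99. That of Atp2b2, a plasma membrane calcium pump gene, lay 40371 bp before it with 2.11, and that of Cacna1a, which holds the α1ACT reading frame, 30133 bp before it with 2.44. Peaks assigned at any distance numbered 59 for Btg1, 12 for Grn, 7 for Cacna1a and 4 for Atp2b2.

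Of the 3060 members 64 were assigned to noncoding transcripts, and 36 of these lay before 32 microRNA genes, where the annotated start is that of the hairpin and not of the primary transcript. Their signals ran from 2.05 to 12.5. The highest belonged to Mir375, a microRNA of neuroendocrine cells, with 12.5 at 274 bp and 4.84 at 585 bp. Mirlet7i had 6.89 at 402 bp, and Mir212, known as a CREB-responsive microRNA, 6.29 at 62 bp. Of the 32 genes 30 matched an entry in the RefSeq table (GRCr8), 29 of them with a mature form. The mature forms of these 3, picked after their values were seen, are shown with the seed, bases 2 to 8, in capitals; the seeds differ from one another.

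rno-miR-375-3p: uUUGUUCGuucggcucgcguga

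rno-let-7i-5p: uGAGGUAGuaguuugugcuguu

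rno-miR-212-3p: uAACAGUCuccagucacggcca

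By peak centres, 3706 of 161729 chromosomal peaks of the full α1ACT 1804 list (2.29%, 2.22 to 2.37) lay in the kilobase before a listed TSS. In the α1ACT M2 list it was 0 of 74 peaks, which allows up to 4.05%. In empty-vector cells it was 2 of 272 peaks of the 1804 list (0.735%, 0.0892 to 2.63), and 0 of 243 of the M2 list, which allows up to 1.23%. The 2.29% lies within the limit of the α1ACT M2 list and the interval of the empty-vector 1804 list, and above the limit of the empty-vector M2 list. Listed TSSs are those with an assigned α1ACT-only peak, a set drawn from the α1ACT 1804 list itself. The shares are therefore not on an equal footing, and no conclusion is drawn from their order. The lowest signal in the 3 lists other than α1ACT 1804 was 14.0, and 33 of the 3060 members (1.08%, 0.744 to 1.51) reached it. The labels do not give the scaling of the signal from library to library. Whether the members are absent from empty-vector chromatin was not tested.

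One of the 2 empty-vector peaks, with a signal of 15.1, had its centre 58.5 bp before Ado, a gene with 0 upstream members and 1 peak over or after the TSS.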

How the data were processed

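Chromatin immunoprecipitation followed by sequencing was done in 6 libraries, 1 per group, of which 4 have a peak list. Per the submitters' processing notes, the genome build was rn5 and the tools included BWA 0.7.5a, ChIPseeker, HOMER, DiffBind and FastQC 0.11.2, with no role given. The peak caller and its settings are not named in the labels or headers. Deposited peak lists give each peak a signal and a −log10 q-value made by the authors, and how the signal was scaled within or between libraries is not stated. Signal was used only to describe and rank peaks within a list. The deposited annotation gives each peak a signed distance in bp to the TSS of its assigned transcript, and this was joined to the signal by chromosome and start.

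Upstream peaks were those at -1000 to -1 bp. Shares have exact Clopper-Pearson 95% intervals and medians exact binomial ones, which cover counting error only. A count of 0 is given the limit of 3 counts. Read depth is unknown, and with 1 library per group no test was run. The rule for named genes took the reported targets, the 15 genes with the highest upstream peak, the 5 TSSs with the most, the 2 highest genes of each list, the 5 highest peaks shared by opposite TSSs and the peaks at the window's ends, skipping placeholder symbols. Further genes within and outside the lists, microRNAs and Ado were named after their values were seen. Some results that the rule would name are not reported here. The members and gene lists were chosen with earlier results of these data known. Of 14390 gene IDs in the annotation 14269 matched the RefSeq gene table (GRCr8), used for names and as background, and 10 of 927 list symbols did not. Promoter and microRNA sequences are RefSeq's (GRCr8). The computation used Python 3.11.15, numpy 2.4.6, pandas 2.3.3, scipy 1.17.1 and matplotlib 3.10.9, and was checked on simulated data. Alternatives to the window, signal limit, q-value limit, edge of the peak, background and overlap were tried.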

Additional observations from a re-analysis of the deposited data

How the results depend on the processing

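The upstream share of annotated peaks, 1.92%, was 1.47% within 500 bp, 2.44% within 2000 bp, 2.84% and 6.75% among the upper 50% and 10% by signal, 2.08% and 3.25% at a −log10 q of at least 2 and 3, and 2.12% by peak centres. The median signal, 4.23, was 4.38 within 500 bp, 4.00 within 2000 bp and 4.44 for the highest peak per TSS. Genes with a member, 2618, were 998 in the upper 10%. The share between opposite TSSs, 3.04%, was 2.03% for a second TSS within 500 bp and 4.25% within 2000 bp. The gene share, 13.7%, was 11.5% within 500 bp, 16.3% within 2000 bp, 10.5% and 5.26% for the upper 50% and 10%, and 18.3% among genes with an assigned peak. Members near a peak of another list, 0 by overlap, were 3 within 500 bp and 3 within 1000 bp. For the empty-vector lists the 0 was fixed in advance, since the annotated peaks are those listed as found with α1ACT alone. The promoter GC median, 66.0%, was 66.7% for members within 250 bp and 67.0% for the upper 10%. The cause of these shifts was not tested. Immediate early genes, chromatin regulators and cholesterol synthesis genes had an interval above the share of all genes under each of the 7 settings. Cytosolic ribosomal proteins did not within 2000 bp, among assigned genes or in the upper 10%. Other lists gained such an interval: presynaptic release within 500 bp and in the upper 50%, cell cycle and Purkinje cell markers within 2000 bp, and calcium channels, pumps and release in the upper 10%. The nearest-edge, centre and upper 10% gene list settings were chosen after seeing the data. No paired analysis was possible because each group holds 1 library, so no library could be left out.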

Other observations

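Genes with an upstream peak were longer than the other listed genes. The median gene length was 20219 bp (19162 to 21646) at TSSs with an upstream peak, 18164 bp at those with a peak over or up to 1000 bp after the TSS alone and 14838 bp at those with no peak within 1000 bp.

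Other high upstream peaks lay before Alkbh5, an RNA demethylase gene, with 13.8, 6.21 and 5.77, and before the microRNA genes Mir3545, with 11.9 at 174 bp, and Mir124-3, a member of a neuronal microRNA family, with 10.2 at 332 bp. These genes are named as values, and nothing was tested on them.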
